A study of Mus musculus with 24 samples.

Results

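The comparison described here set activated CD8+ T cells lacking the glucocorticoid receptor gene Nr3c1 (cKO) against wild-type cells (WT), both cultured without dexamethasone. Its members were the 3 cKO and 3 WT libraries that the sample titles mark as Ctrl at day 3, which are 6 of the 24 libraries of the series, and all 23366 genes of the deposited count table. All animals were C57BL/6 mice carrying floxed Nr3c1 alleles (Nr3c1fl/fl). The WT group was E8i-Cre negative and the cKO group E8i-Cre positive. E8i is an enhancer of the Cd8 locus, which drives Cre in the CD8 lineage and leaves Nr3c1 in other cells of the animal. In all groups CD8+ cells of spleen and lymph nodes were sorted as naive (CD62L high, CD44 negative) and stimulated for 3 days on plates coated with anti-CD3 and given anti-CD28 (both 1 µg/ml), in medium with fetal calf serum. Each library came from 1000 sorted cells, amplified by a modified SMART-Seq2 protocol with 11 cycles. The replicates are numbered 1 to 3 for WT and 4 to 6 for cKO. Whether each replicate is its own animal or culture is not stated, so every p-value rests on library-to-library spread that may be technical. Where stated, values are set beside the same genotypes cultured with 10 nM dexamethasone (Dex), a synthetic glucocorticoid.

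The glucocorticoid receptor is a nuclear hormone receptor that waits in the cytoplasm, bound to heat shock protein chaperones, until a glucocorticoid binds it. It then enters the nucleus, where it activates genes such as Tsc22d3, Fkbp5, Per1 and Dusp1 and restrains the inflammatory programmes driven by NF-kB and AP-1. In T cells glucocorticoids are known for limiting cytokine production and for altering survival, trafficking and differentiation. Comparing the genotypes without added hormone asks what the receptor gene contributes at the level of ligand these cultures hold by themselves.

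Estimated counts summed to between 14221883 and 16387150 in the WT libraries and between 15629294 and 15925308 in the cKO libraries. The WT libraries stood apart from the other day 3 libraries on the second principal component (14.3% of the variance), with scores of 13.11 to 28.97 against -14.82 to -7.36 in cKO, -3.86 to 4.5 in WT with Dex and -15.41 to -0.76 in cKO with Dex. The ribosomal RNA precursor Rn45s took 11.1% ± 0.566 of the counts in WT and 12.8% ± 0.285 in cKO (SD, n = 3; exact two-sided permutation test, p = 0.1, the smallest that 3 against 3 allows). Base composition moved with the groups as well. Among 598 tested genes whose transcripts had a GC content above 58%, the median log2 level relative to the mean of the 12 day 3 libraries was -0.081, -0.0575 and -0.0675 in the 3 WT libraries, and between 0.0173 and 0.0388 in the other 9. For genes described below, a call that ended in a fit corrected for GC content is given as such. Genes without a transcript GC value, among them Gm5506 and Irg1, were not in that fit.

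Cells of both genotypes carried the markers of CD8 T cells: all 18 listed T cell receptor and CD8 genes were tested, and their summed level was 4909 to 4970 CPM (counts scaled to a common library size with edgeR's TMM factors) in WT and 4924 to 5148 in cKO. Of 12 B cell markers 2 were tested (Cd79b and Ebf1), with a summed level over the list of 18.2 to 22 CPM in WT and 19.6 to 23 in cKO, and Pax5 and Blnk had no count in any of the 6 libraries. Of 16 myeloid and dendritic markers 1 was tested (Cd68). Their sums were 4.96 to 8.62 CPM in WT and 5.1 to 10.6 in cKO, with Lyz1, Lyz2, S100a8 and Clec9a at 0. Of 10 NK cell markers 2 were tested, Eomes and Klrk1, which activated CD8 T cells also express, and Ncr1, Klra8 and Klra4 were at 0. Cd4 had 9 counts over the WT and 2 over the cKO libraries. No tested marker of B, myeloid, CD4, NK or stromal cells passed the test. Tested were 6 of 7 CD4 T cell markers and 3 of 9 stromal and endothelial markers. Of 10 erythroid and platelet markers 0 were tested, so none of them could pass. The sexes matched: Xist differed by -0.00 ± 0.05 on the log2 scale, and the Y-linked Kdm5d and Uty had no count in the 6 libraries.

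Nr3c1 itself checked the labels. It was measured at 17.1, 18.8 and 15.2 CPM in the WT libraries and at 7.34, 8.46 and 7.42 CPM in the cKO libraries. The groups did not overlap, and cKO retained 45.4% of the WT level, a log2 change of -1.14 ± 0.15 (SE, n = 3 per group; edgeR quasi-likelihood test with Benjamini-Hochberg adjustment over all 11967 tested genes, adjusted p = 8.6e-04). In the Dex cultures cKO retained 31.9% (log2 change -1.65 ± 0.15). Which exon Cre removes is not stated. Reads from the rest of the gene can remain in deleted cells, so the residual level does not measure the share of cells that kept the receptor, and fewer cells with the transcript cannot be told apart from less transcript per cell.

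Of the 11967 tested genes, 283 (2.36%) passed the test at an adjusted p under 0.05. Of these, 165 were higher in cKO (1.38% of those tested) and 118 lower (0.986%). The share of 2.36% applies beside every count of passing list members below. Of the 283, 145 also passed between WT with and without Dex, where 1129 of all tested genes did. For 138 of the 145, cKO and WT with Dex differed from WT without Dex in the same direction. The same WT libraries without Dex enter both comparisons, and their part in these calls was not tested. The changes were small: 187 of the 283 were under 1.5-fold, and 25 genes rose and 4 fell by at least 2-fold. The libraries of the 2 genotypes did not overlap for 282 of the 283. Non-overlap alone was common, at 22.2% of all tested genes. The count rested on single libraries. It was 74, 63 and 364 without WT replicate 1, 2 or 3, and 88, 177 and 89 without cKO replicate 4, 5 or 6. Corrected for GC content, 147 of 11214 genes passed (94 higher, 53 lower), where the same genes without the correction gave 313. Genes that rose had a median transcript GC content of 54.5% and genes that fell 44.1%, against 50% over all tested genes. Among 104 passing genes followed through up to 18 other settings, 27 passed in every one, among them Nr3c1, Podnl1, Rbm45, H60b, H2-Q9, H2-Q7, Mid1, Nomo1, Nfil3, Itgb7, Bst2, Plscr1, Plcg1, Ccnd3, Cactin, Lgals1, Cdk17, Rpp40, Ccrl2, Tcea1, Zfp868, Slc25a42, Mtmr7, Mtfr2, Arhgef1 and Hsh2d.

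**Figure D1:**
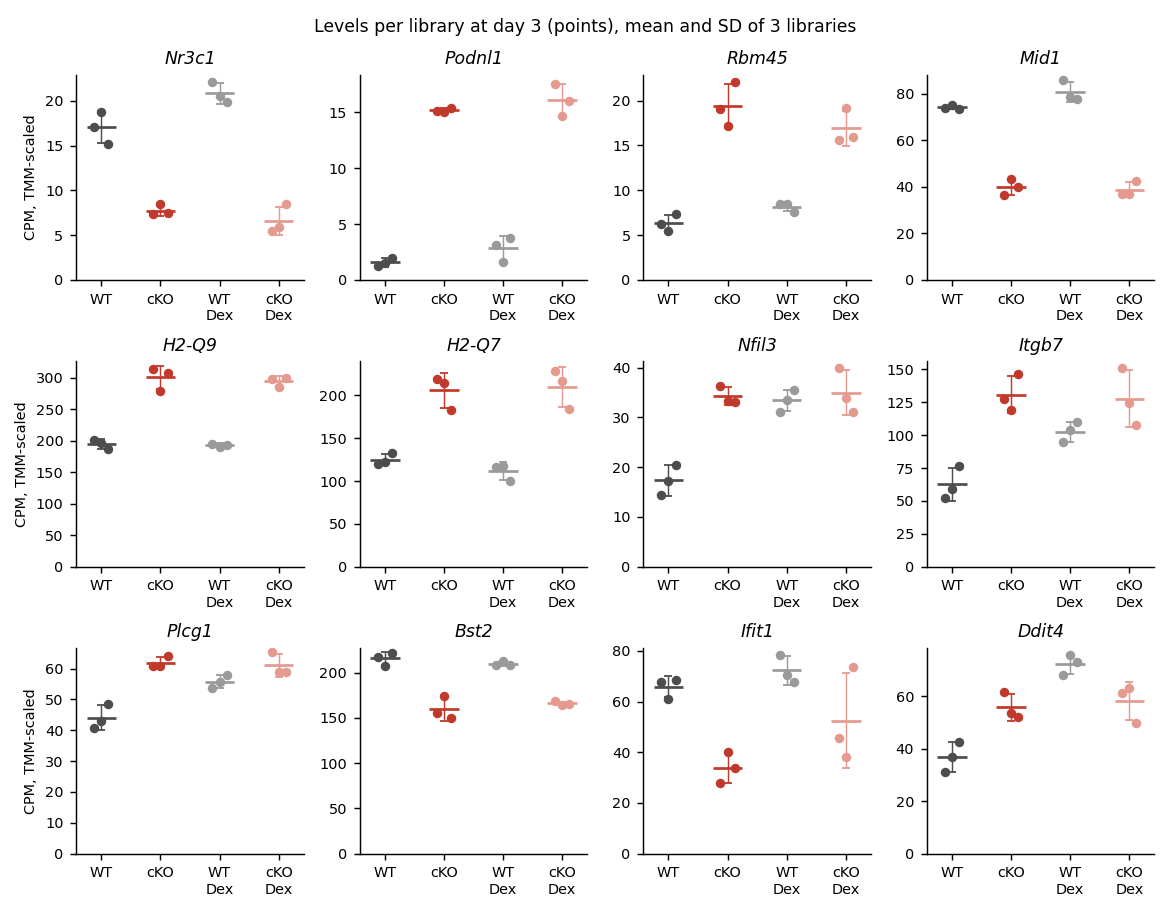
Levels of 12 genes in the 12 day 3 libraries, in TMM-scaled CPM on linear axes from 0; points are libraries, the bar is the mean and the whisker the SD of 3 libraries. Nr3c1, Mid1, Bst2 and Ifit1 lie lower in all cKO libraries without Dex than in any WT library without Dex. Podnl1, Rbm45, H2-Q9, H2-Q7, Nfil3, Itgb7, Plcg1 and Ddit4 lie higher.

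Genes that receptors of this class are known to induce showed little difference without added hormone. Of 31 tested glucocorticoid targets 1 rose, none fell, and the median log2 change was 0.01, beside 0.00 over all tested genes. Tsc22d3, which encodes the anti-inflammatory protein GILZ, was measured at 67.1, 55.9 and 54.7 CPM in WT and at 51.2, 60.8 and 58.8 CPM in cKO. These libraries overlapped, and the log2 change of Tsc22d3 was -0.06 ± 0.11 (adjusted p = 0.845). Fkbp5, a co-chaperone in the receptor complex, gave 18.9, 23.6 and 22.3 CPM in WT against 21.8, 23.2 and 19.9 CPM in cKO (log2 change 0.00 ± 0.10). Per1 and Dusp1, a clock repressor and a MAP kinase phosphatase, gave log2 changes of -0.07 ± 0.08 and -0.30 ± 0.10, neither passing. With Dex the same list held 17 genes lower and 1 higher in cKO, with a median of -0.70, and the difference between the 2 conditions, which passed for 353 of all tested genes (2.95%), passed for Tsc22d3 (-1.49 ± 0.15) and Fkbp5 (-0.84 ± 0.14).

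The target that rose was Ddit4, an inhibitor of mTORC1 signalling. It was at 31.2, 36.7 and 42.6 CPM in WT and at 61.4, 53.4 and 52.1 CPM in cKO, without overlap, a log2 change of 0.60 ± 0.11 (adjusted p = 0.0104). The Ddit4 call ended without WT replicate 1 (adjusted p = 0.0538), WT replicate 2 (0.0544) or cKO replicate 4 (0.0542). With Dex the order was the other way, at 72.2 against 58.1 CPM on average (log2 change -0.31 ± 0.11, not passing), and the difference between conditions passed (-0.91 ± 0.15, adjusted p = 0.00221). Of the 18 tested genes for the receptor, its chaperones and its corepressors, Nr3c1 alone passed.

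The largest difference at a moderate level was in Podnl1, which encodes a podocan-like leucine-rich repeat protein. It was at 1.24, 1.51 and 2 CPM in WT and at 15.1, 15 and 15.4 CPM in cKO. All cKO libraries exceeded all WT libraries, by 9.59-fold (log2 change 3.26 ± 0.23, adjusted p = 9.2e-07). With Dex the log2 change of Podnl1 was 2.50 ± 0.21. Rbm45, an RNA-binding protein gene, rose from 6.29, 5.49 and 7.31 CPM in WT to 19.1, 17.2 and 22.1 CPM in cKO, a log2 change of 1.61 ± 0.15 (adjusted p = 9.3e-06) and 1.05 ± 0.14 with Dex. H60b, which encodes a ligand of the activating receptor NKG2D, was nearly absent in WT, at 0, 0.121 and 0.138 CPM, and at 2.7, 2.52 and 1.51 CPM in cKO (log2 change 4.58 ± 0.68, adjusted p = 0.00283).

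Non-classical MHC class I genes, which encode ligands for NK and other innate receptors, were among those that rose. The list for these genes was written after values had been seen. Of its 16 tested members 6 rose and none fell (H60b, H2-Q4, H2-Q5, H2-Q7, H2-Q8 and H2-Q9), with a median log2 change of 0.33, while none of the 3 tested classical class I genes passed (median 0.02). H2-Q9 was at 201, 197 and 187 CPM in WT and at 314, 279 and 308 CPM in cKO, 1.54-fold higher (log2 change 0.62 ± 0.05, adjusted p = 6.9e-06). H2-Q7 rose by 0.72 ± 0.09 on the log2 scale, from 120, 122 and 132 to 219, 215 and 183 CPM. With Dex these log2 changes were 0.61 and 0.91, and all 6 genes passed there too. H2-Q4 (0.40 ± 0.08), H2-Q8 (0.70 ± 0.14) and H2-Q5 (0.48 ± 0.11) rose less firmly: H2-Q4 did not pass without WT replicate 2 (adjusted p = 0.0608) or cKO replicate 4 (0.0573), H2-Q8 without WT replicate 1 (0.0645) or cKO replicate 4 (0.0542), and H2-Q5 without any of WT 1, WT 2, WT 3, cKO 4 and cKO 5 (0.0707 to 0.117) or after GC correction (0.0812). H2-Q8 and H2-Q9 had no transcript GC value and were left out of the GC-corrected fit, in which 3 list members passed. The H2-Q genes are near-identical copies of one another, so the division of reads among them is uncertain and they are not separate measurements.

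Among genes that fell, Mid1 encodes a microtubule-associated ubiquitin ligase. It was at 74.1, 75.2 and 73.6 CPM in WT and at 36.6, 43.5 and 40 CPM in cKO, so that cKO held 53.9% of the WT level (log2 change -0.89 ± 0.08, adjusted p = 8.9e-06; -1.06 ± 0.08 with Dex). Nomo1, part of an endoplasmic reticulum membrane complex, fell from 51.9, 61.2 and 60.1 to 31.1, 36 and 27.4 CPM (log2 change -0.88 ± 0.10; -0.69 ± 0.10 with Dex). Ccrl2, an atypical chemoattractant receptor, fell by 0.70 on the log2 scale (± 0.11), Rpp40, a subunit of ribonuclease P, by 0.71 (± 0.11), and Plagl1, a zinc finger transcription factor, by 0.78 (± 0.13). Cflar, an inhibitor of death receptor signalling, fell by 0.27 (± 0.07). The Cflar call ended without WT 1, 2 or 3 or cKO 4 or 6 (adjusted p 0.0593 to 0.173) and after GC correction (0.135).

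Nfil3, a basic leucine zipper repressor that acts in the clock and in lymphocyte differentiation, was at 14.3, 17.2 and 20.5 CPM in WT and at 36.4, 33.4 and 33 CPM in cKO. Nfil3 was 1.98-fold higher, with a log2 change of 0.98 ± 0.12 (adjusted p = 3.9e-04). With Dex its log2 change was 0.07 ± 0.12, and the difference between conditions passed (adjusted p = 0.00408). Itgb7, the beta chain of gut-homing integrins, rose from 52.5, 58.7 and 76.6 to 127, 119 and 146 CPM, 2.09-fold (log2 change 1.06 ± 0.13, adjusted p = 3.3e-04; 0.32 ± 0.13 with Dex, difference adjusted p = 0.0284). Runx3, a factor that sets the CD8 fate, rose by 0.32 ± 0.07 and Selplg, which encodes the selectin ligand PSGL-1, by 0.27 ± 0.05. The Runx3 call ended without WT 1, WT 2, cKO 4, cKO 5 or cKO 6 (adjusted p 0.0627 to 0.119) and after GC correction (0.0773). That of Selplg ended without WT 2 (0.0608) and after GC correction (0.068). In all, 2 of 24 tested effector and dysfunction transcription factors (8.33%) and 2 of 25 integrin and trafficking genes (8%) rose and none fell. Over all tested genes 1.38% rose.

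Interferon-stimulated genes that passed were all lower in cKO. Of 42 tested, 4 fell and none rose, and the median log2 change was -0.13. With GC correction 4 passed as well. The summed level of the list was 5703 to 5811 CPM in WT and 5667 to 5853 in cKO. Bst2 encodes tetherin, which holds budding virions at the cell surface. It was at 218, 207 and 222 CPM in WT and at 155, 175 and 149 CPM in cKO, without overlap (log2 change -0.43 ± 0.06, adjusted p = 8.4e-04). In the Dex cultures Bst2 was lower in cKO than in WT by 0.34 on the log2 scale. Ifit1, which binds foreign RNA caps, was at 67.7, 61.1 and 68.6 CPM in WT and at 27.9, 39.9 and 34 CPM in cKO (log2 change -0.95 ± 0.17, adjusted p = 0.0104). Isg15, a ubiquitin-like modifier, was at 81.1, 74.6 and 83.3 CPM against 50.4, 65 and 48.1 CPM (-0.55 ± 0.12, adjusted p = 0.0255). Oasl1, an oligoadenylate synthetase-like protein, fell by 0.97 on the log2 scale (± 0.22, adjusted p = 0.0294), from 48.1, 46.7 and 36.6 to 20.6, 31.4 and 15.3 CPM. In each of the 4 genes every cKO library was below every WT library. Such separation came with nearly every call (282 of 283) and held for 22.2% of all tested genes. The Bst2 call held without each of the 6 libraries. Ifit1 did not pass without cKO 4 (0.0542). Isg15 did not pass without WT 1, 2 or 3 or cKO 4 or 6 (0.0503 to 0.103), nor Oasl1 without WT 1, WT 2, cKO 4 or cKO 6 (0.101 to 0.109). Plscr1, a phospholipid scramblase that interferon induces and that was named after its values were seen, fell from 181, 198 and 183 to 138, 152 and 122 CPM (log2 change -0.45 ± 0.07) and passed in every setting. Slfn5 and Ifi30, followed beside it, fell by 0.37 and 0.45 on the log2 scale. They did not pass in 5 and 8 of 18 other settings.

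The upstream sequences of the 4 list members are shown because interferon acts on genes through a recognisable element. The core searched was GAAA, any 2 bases and GAAA, on both strands and allowing overlaps, in the 250 bases before each transcription start in RefSeq (GRCm38.p6). It occurred in 3.46% of 27025 genes with a promoter in that table, in 3.24% of 8898 tested genes matched by symbol, in 12 of 30 matched interferon-stimulated genes (40%) and in 3 of the 4 that fell. The last 130 bases before the start are printed on the strand of the gene, with matches in capitals (it reads TTTC, any 2 bases and TTTC where it lies on the other strand).
Bst2 (chr8:71537473-71537602, minus strand): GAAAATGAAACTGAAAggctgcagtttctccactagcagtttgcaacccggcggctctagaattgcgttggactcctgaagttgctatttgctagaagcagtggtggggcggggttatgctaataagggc
Isg15 (chr4:156200819-156200948, minus strand): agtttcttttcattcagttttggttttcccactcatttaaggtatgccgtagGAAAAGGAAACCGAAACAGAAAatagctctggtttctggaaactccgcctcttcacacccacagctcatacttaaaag
Ifit1 (chr19:34640759-34640888, plus strand): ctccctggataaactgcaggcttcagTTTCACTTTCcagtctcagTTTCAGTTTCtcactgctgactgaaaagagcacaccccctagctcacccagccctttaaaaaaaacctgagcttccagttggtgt
Oasl1 (chr5:114923110-114923239, plus strand): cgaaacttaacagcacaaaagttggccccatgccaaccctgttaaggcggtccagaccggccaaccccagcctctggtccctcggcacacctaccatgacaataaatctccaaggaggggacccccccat
The capitals lie 115 to 130 bases before the start in Bst2, 57 to 78 in Isg15 and 76 to 104 in Ifit1, and these letters do not occur in the window of Oasl1. The receptor's palindrome, AGAACA, any 3 bases and TGTTC, was found in the 250 bases before the start of 0 of the 121 matched genes that rose and 0 of the 84 that fell, and in 0.0333% of all genes in the table. Its single arm, AGAACA, was found in 11.6% of those that rose and 17.9% of those that fell, against 12.9% of tested genes.

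Of 22 tested cytokine and chemokine genes, 2 fell, none rose and 17 had a negative log2 change, with a median of -0.37. With Dex the median was 0.22, and 8 were higher and 2 lower. The chemokine genes Ccl3 and Ccl4, which attract lymphocytes and myeloid cells, were those that fell. Ccl3 was at 134, 207 and 245 CPM in WT and at 128, 123 and 100 CPM in cKO (log2 change -0.74 ± 0.17, adjusted p = 0.0308), and Ccl4 at 182, 246 and 301 CPM against 163, 160 and 93.2 CPM (-0.81 ± 0.20, adjusted p = 0.0442). WT replicate 1 lay close to the cKO libraries for both. Their calls ended without WT 2, WT 3, cKO 4, cKO 5 or cKO 6 (adjusted p 0.0627 to 0.113 for Ccl3 and 0.0598 to 0.136 for Ccl4) and after GC correction (0.0506 and 0.0593). Il2, the T cell growth factor, was at 120, 135 and 151 CPM in WT and at 45.6, 63 and 59.3 CPM in cKO, but its log2 change of -1.27 ± 0.39 did not pass (adjusted p = 0.0967); it was named after its values were seen. Ifng gave -0.21 ± 0.21 (adjusted p = 0.669) and Tnf -0.34 ± 0.15 (adjusted p = 0.244). With Dex, Ifng was higher in cKO by 4.63 ± 0.29, and the difference between conditions passed (4.84 ± 0.36).

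Of 25 tested NF-kB and AP-1 genes, 2 fell and none rose (median log2 change -0.14). Junb, an AP-1 subunit, fell by 0.20 (± 0.04) and Rel, an NF-kB subunit, by 0.29 (± 0.07). Junb did not pass without WT 1 (adjusted p = 0.0762), WT 2 (0.0904) or cKO 6 (0.064), and Rel not without WT 1, WT 2, cKO 4, cKO 5 or cKO 6 (0.0586 to 0.186) or after GC correction (0.166). Cd69, an early activation antigen, was the 1 of 20 costimulation and TNF family genes to pass, with a log2 change of -0.33 ± 0.07. It was at 240, 240 and 209 CPM in WT and at 174, 195 and 178 CPM in cKO. In the Dex cultures Cd69 was also lower in cKO than in WT (by 0.52). The Cd69 call ended without WT 1, WT 2, cKO 4 or cKO 6 (0.058 to 0.0799) and after GC correction (0.0763).

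Of 24 tested members of the endoplasmic reticulum stress list, 3 fell and none rose (median log2 change -0.13), and the same count was reached with GC correction. They were Atf4, the factor that drives the amino acid response (-0.21 ± 0.05), its target Trib3 (-0.35 ± 0.07) and Herpud1, a component of protein degradation at the reticulum (-0.29 ± 0.05). Trib3 was at 125, 127 and 123 CPM in WT and at 106, 97 and 90.7 CPM in cKO. With Dex, Trib3 was higher in cKO (0.38 ± 0.07, adjusted p = 0.00336), and the difference between conditions passed (0.73 ± 0.11, adjusted p = 5.6e-04). Its call ended without WT 1, WT 2, cKO 5 or cKO 6 (0.0561 to 0.0868), that of Herpud1 without WT 2 or cKO 6 (0.0799 and 0.0568) and that of Atf4 without any 1 of the 6 libraries (0.0601 to 0.135).

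A list of 20 aminoacyl-tRNA synthetases and one of 19 serine and one-carbon genes were added after values had been seen. Of the synthetases, which charge tRNAs with amino acids, Nars, Iars, Rars and Eprs fell, Vars rose, and 17 of 20 had a negative log2 change (median -0.15). Nars went from 644, 642 and 627 CPM in WT to 535, 545 and 539 CPM in cKO, without overlap, a log2 change of -0.24 ± 0.04 (adjusted p = 0.00539), and it passed without each of the 6 libraries. Iars, Rars and Eprs did not pass without WT 1, WT 2, cKO 4 or cKO 6 (0.0915 to 0.185), nor Rars (0.0752) and Eprs (0.0985) after GC correction. Vars did not pass without WT 1, WT 2, cKO 4, cKO 5 or cKO 6 (0.0542 to 0.097) or after GC correction (0.073). Among the one-carbon genes Aldh1l2, a mitochondrial folate enzyme, fell by 0.64 (± 0.11), Cth, which makes cysteine, by 0.41 (± 0.09) and Slc7a3, a cationic amino acid transporter, by 0.42 (± 0.09), and none rose. Aldh1l2 passed without each library. Slc7a3 and Cth did not pass without WT 1, WT 2, cKO 4 or cKO 6 (0.0708 to 0.11), nor Cth after GC correction (0.0634).

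Of the 18 T cell receptor and CD8 genes, 2 rose and 1 fell. Plcg1, the phospholipase activated by the receptor, rose from 40.6, 43 and 48.7 to 60.9, 60.9 and 64.1 CPM (log2 change 0.49 ± 0.08, adjusted p = 0.00384). Cd3e, a signalling chain of the receptor, rose by 0.32 ± 0.06, and the adaptor Lcp2 (SLP-76) fell by 0.24 (± 0.06). With Dex, Lcp2 was higher in cKO (0.23 ± 0.06), and the difference between conditions passed (adjusted p = 0.00315). Cd3e did not pass without WT 1, WT 2, cKO 4 or cKO 6 (0.0512 to 0.0921), and Lcp2 not without any 1 library (0.0566 to 0.132) or after GC correction (0.087). The coreceptor genes gave 0.19 ± 0.05 for Cd8a (adjusted p = 0.068) and 0.08 ± 0.05 for Cd8b1.

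None of 16 tested inhibitory receptors (median -0.08) and none of 20 naive and memory genes (median 0.12) did. Pdcd1, which encodes PD-1, gave -0.23 ± 0.11 (adjusted p = 0.284) without Dex and -1.53 ± 0.11 with Dex, and the difference passed (-1.30 ± 0.15). Tcf7, the memory factor TCF-1, gave 0.12 ± 0.07. Of 15 tested cytotoxic granule genes Lamp1 rose (0.82 ± 0.18), and Gzmb, a granule protease, gave 0.17 ± 0.05 (adjusted p = 0.0912). Lamp1, a lysosomal membrane protein exposed on degranulation, did not pass without WT 1, WT 2 or cKO 6 (0.0928 to 0.0992).

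Metabolic and growth lists moved little. Of 30 glycolysis and hypoxia genes Gpi1 (0.20 ± 0.05) and Aldoc (0.56 ± 0.12), both glycolytic enzymes, rose, and of 23 cholesterol synthesis genes Mvd (0.32 ± 0.07) and Fdps (0.27 ± 0.05), both enzymes of the mevalonate pathway. All 4 were also higher in cKO than in WT in the Dex cultures. None of the 4 passed without WT 2, cKO 4 or cKO 6 (0.0542 to 0.104). Gpi1, Mvd and Fdps did not pass without WT 1 (0.0527 to 0.0828), and Gpi1 and Mvd not without WT 3 (0.0866 and 0.0522) or after GC correction (0.0799 and 0.12). None of 28 respiratory chain genes passed (median 0.02). Ccnd3, the D-type cyclin of lymphocytes, was the 1 of 31 cell cycle genes to pass. It was at 436, 441 and 453 CPM in WT and at 532, 521 and 587 CPM in cKO (log2 change 0.30 ± 0.05, adjusted p = 0.00605). The excess of cKO over WT was larger in the Dex cultures (0.62 ± 0.05, difference adjusted p = 0.0242). All 28 ribosomal protein genes had a positive log2 change, with a median of 0.07, and Rps2 passed. The plot of list members by log2 change shows the spread of each list around its median.

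**Figure D2:**
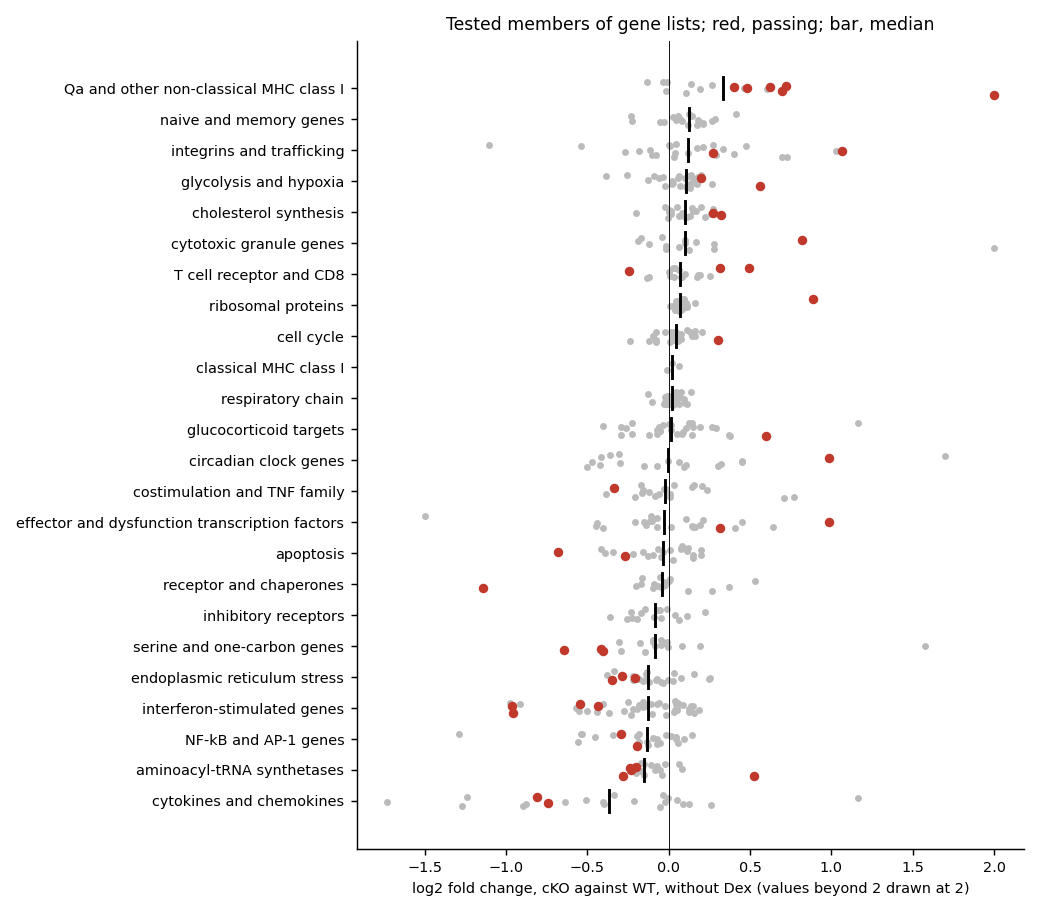
Log2 fold change of cKO against WT without Dex (horizontal axis) for each tested member of 24 gene lists (vertical axis, ordered by median). Red points passed the test, grey points did not, and the black bar is the list's median, from -0.37 for cytokines and chemokines to 0.33 for the Qa list.

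Several of the largest rises rested on WT libraries that differed among themselves. Rnf187, a RING finger gene, was at 10.3, 23.1 and 51.1 CPM in WT replicates 1, 2 and 3 and at 90.3, 89.8 and 104 CPM in cKO (log2 change 1.75 ± 0.35, adjusted p = 0.0151). Rps2, a small ribosomal subunit protein, was at 883, 1501 and 2059 CPM in WT against 2757, 2733 and 2724 CPM in cKO (0.89 ± 0.22). Donson, a replication fork gene, was at 3.54, 7.41 and 9.79 CPM against 16.9, 17 and 21.9 CPM (1.43 ± 0.26). In these genes WT replicate 1 was lowest and WT replicate 3 nearest to cKO, and all WT libraries with Dex lay above all WT libraries without it, for Rnf187 at 73.5, 74.7 and 84.3 CPM. The WT libraries without Dex stood in the same order for Mrs2, Acbd6, Cactin, Foxo3, Tysnd1, Uck2 and Lsm4, which rose by 0.86 to 1.22 on the log2 scale. Rnf187 did not pass without WT 2 (0.0845) or cKO 6 (0.0544), and Rps2 not without WT 1, WT 2, cKO 4, cKO 5 or cKO 6 (0.0889 to 0.122) or after GC correction (0.0708). The same held for Mrs2 (0.0771 to 0.117, and 0.0593 after GC correction). Acbd6, Tysnd1, Uck2 and Lsm4 did not pass without WT 1, WT 2, cKO 4, cKO 5 or cKO 6 (0.0521 to 0.115), nor Tysnd1 (0.0777) and Lsm4 (0.0635) after GC correction, nor Foxo3 without WT 1, WT 2, cKO 4 or cKO 6 (0.0654 to 0.08). Donson passed without each of the 6, and Cactin in every setting. Beyond these fits, the part of base composition in these rises was not tested. Outside the naming rule, Irg1 fell by 4.74 on the log2 scale (± 1.08), almost wholly through 13.5 CPM in WT replicate 1 (1.93 and 0.552 in WT 2 and 3), and did not pass without that library (adjusted p = 0.223) or without cKO 4, 5 or 6 (0.0702 to 0.0967). Gm4724, the 1 passing gene whose libraries overlapped, had 453 counts over the cKO libraries, 0 of them in replicate 5, against 2 over the WT libraries.

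The same genotypes cultured with Dex gave a comparison that shares no library with the one above, although the culture series and mouse lines are the same. The same replicate numbers recur in it, so its libraries may come from the same animals. In the comparison with Dex 826 genes passed (6.9%). Of the 283 genes that passed without Dex, 59 passed in the same direction with Dex (0.493% of tested genes), which is 20.8% of the calls without Dex and 7.14% of the calls with it. They were 42 higher and 17 lower genes. Besides those above they included Lgals1 (galectin-1, 0.29 ± 0.05 without and 0.27 ± 0.05 with Dex), Anxa2 (annexin A2, 0.31 ± 0.05 and 0.43 ± 0.05), the kinase gene Cdk17 (0.60 ± 0.09 and 0.82 ± 0.10), the zinc finger gene Zfp868 (0.76 ± 0.11 and 0.63 ± 0.11) and the mitochondrial carrier gene Slc25a42 (0.83 ± 0.13 and 0.75 ± 0.13). Of these 59 genes, Ccnd3 was the 1 for which the difference between conditions passed. The count of 59 was 23 to 104 when 1 library of either comparison was left out (23 without WT 2, 104 without cKO 6 with Dex) and 39 with GC correction.

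A further 8 genes passed in both conditions with opposite signs. The difference between conditions passed for all 8, which their choice by opposite signs made nearly certain in advance. Vim, which encodes the intermediate filament vimentin, was at 584, 567 and 607 CPM in WT and at 690, 682 and 821 CPM in cKO without Dex (log2 change 0.32 ± 0.06). With Dex, Vim stood at 1227, 1305 and 1349 CPM in WT and at 710, 763 and 773 CPM in cKO (-0.79 ± 0.06). The cKO libraries thus lay in a similar range in both conditions, above WT in one and below it in the other. Socs1, a suppressor of cytokine signalling (0.50 ± 0.12 and -0.47 ± 0.12), Gimap3, a lymphocyte GTPase (0.24 ± 0.06 and -0.32 ± 0.06), and Csgalnact1, an enzyme of chondroitin sulfate synthesis (1.98 ± 0.41 and -1.41 ± 0.36), were likewise higher in cKO without Dex and lower with it. Trib3, Slc7a3 (-0.42 ± 0.09 and 0.41 ± 0.09), Lcp2 and Dgat2, a triglyceride synthesis enzyme (-0.54 ± 0.14 and 0.61 ± 0.14), were lower in cKO without Dex and higher with it. Without Dex none of Vim, Gimap3, Socs1, Csgalnact1 and Dgat2 passed without WT 2 (0.0799 to 0.126) or cKO 6 (0.0538 to 0.138), nor without WT 1 (0.0584 to 0.11). Gimap3 and Dgat2 did not pass without WT 3 (0.0898 and 0.152) or cKO 4 (0.109 and 0.0649), Socs1 and Csgalnact1 not without cKO 4 (0.0544 and 0.0668), and Socs1 and Dgat2 not without cKO 5 (0.0618 and 0.109). Gimap3 (0.0589) and Socs1 (0.0919) did not pass after GC correction.

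**Figure D3:**
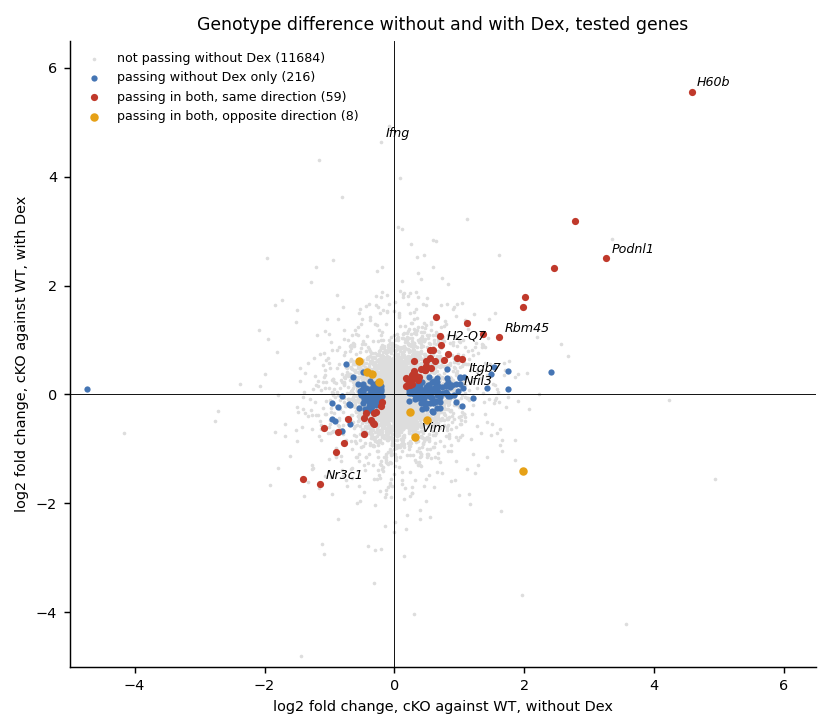
Log2 fold change of cKO against WT without Dex (horizontal axis) and with Dex (vertical axis) for the tested genes; 4 genes lie outside the axes. Red points are the 59 genes passing in both in the same direction, along the diagonal from Nr3c1 to H60b; blue points are the 216 passing without Dex only, which lie near the horizontal axis; orange points are the 8 with opposite signs.

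WT cells with and without Dex also differed for 130 of the 216 genes that passed without Dex and not with it. They did so for 7 of the 59 that passed in both conditions in the same direction. Between cKO with and without Dex 0 genes passed, and the WT libraries without Dex enter both comparisons. How the 216 and the 59 were chosen therefore largely fixed these counts in advance. Of the 216, the difference between the 2 conditions itself passed for 49 and did not for 167. The first set includes Nfil3, Itgb7, Ddit4, Nars, Tcea1 and Cactin. Tcea1, a transcription elongation factor, fell by 0.29 (± 0.05) without Dex and gave 0.14 ± 0.05 with it. Cactin, a negative regulator of NF-kB, rose from 7.99, 9.52 and 13.4 CPM in WT to 18.2, 18.3 and 23.2 CPM in cKO (log2 change 0.95 ± 0.16) and gave -0.13 ± 0.15 with Dex.

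The response to Dex measured in other libraries, WT cells at day 9, where 6850 of 12320 genes passed (55.6%), gave lists that the genotype comparison did not use. Of the 100 genes that rose most there, 95 were tested at day 3. Of these 95, 3 were higher and none lower in cKO without Dex (3.16%, near the 2.36% of all tested genes). The median log2 change of the 95 was 0.13, beside 0.00 over all tested genes. Of the 100 that fell most, 90 were tested, 2 were higher and 9 lower (12.2% passing), with a median of -0.10 (-0.18 in lists of 50 genes). Ccl3, Ccl4, the transferrin receptor gene Tfrc and Nomo1 were among the 9. Tfrc fell by 0.28 on the log2 scale (± 0.05), and did not pass without WT 1 (0.0525), WT 2 (0.0516) or cKO 4 (0.0511) or after GC correction (0.0871). In the comparison with Dex at day 3, 3 genes of the first list were higher and 42 lower in cKO (median -0.58) and 21 of the second were higher and 2 lower (median 0.01).

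The share of passing genes differed between chromosomes, and this spread was not tested. The chromosome that carries Podnl1 was singled out after values had been seen, and it had the highest share. Gene order was taken from RefSeq (GRCm38.p6), in which 11907 of the tested genes could be placed, since the files' own build is mm9. On the chromosome that carries Podnl1, 41 of 625 tested genes passed (6.56%), 24 higher and 17 lower, beside 241 of 11282 (2.14%) on all the others. The others ranged from 0.732% to 3.45%, apart from a chromosome with 1 tested gene, which did not pass. Of the 59 genes that passed in both conditions, 14 (23.7%), Podnl1 among them, lay on the chromosome of Podnl1. These 14 were 2.24% of its 625 tested genes, beside 0.399% on all the others. Besides Podnl1 they included Fut10, a fucosyltransferase gene (2.78 ± 0.56 without and 3.20 ± 0.63 with Dex), Kifc3, a kinesin (2.45 ± 0.56 and 2.33 ± 0.53), Snx20, a sorting nexin (1.98 ± 0.39 without Dex, passing with it too), and Mtmr7, a phosphoinositide phosphatase, which fell (-1.41 ± 0.24 and -1.56 ± 0.24). Hsh2d, an adaptor of activated T cells, fell by 1.08 (± 0.19), from 11.1, 8.5 and 9.52 to 4.96, 4.33 and 4.47 CPM, and Ocel1 rose by 1.04 ± 0.20. These genes were named after their values were seen, and Fut10, Kifc3, Snx20 and Mtmr7 had means under 10 CPM in both groups. Bst2, Junb, Herpud1, Lamp1 and Mvd, given above, lie on the same chromosome. Within 100 tested genes on either side of Podnl1, 21 of 200 passed (10.5%), and within 50 on either side 8 of 100 (8%). The larger share was seen in every setting, from 1.92% against 0.443% (without WT 2) to 10.7% against 4.09% (no low-count filter), and was 3.96% against 1.17% with GC correction. These settings reuse the same libraries, so they do not add independent support. Fut10, Kifc3 and Snx20 did not pass without WT 1, WT 2 or cKO 6 (0.0633 to 0.124), nor Kifc3 without cKO 4 (0.062), and Ocel1 not without WT 1 (0.0584) or WT 2 (0.0544).

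The chromosome of Nr3c1 did not stand out in the same way. There 7 of 280 tested genes passed (2.5%). Within 100 tested genes on either side of Nr3c1, 6 of 200 did (3%). Within 50 on either side, 2 of 100 did (2%), with a median log2 change of -0.00. They were Hspa9, the mitochondrial chaperone mortalin (-0.25 ± 0.05), and Gm5506, an enolase-like predicted gene (0.46 ± 0.11), whose reads can be shared with near-identical copies. Hspa9 did not pass without WT 1 (0.079), WT 2 (0.0608) or cKO 6 (0.0538), and Gm5506 not without any 1 of the 6 libraries (0.0586 to 0.154).

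**Figure D4:**
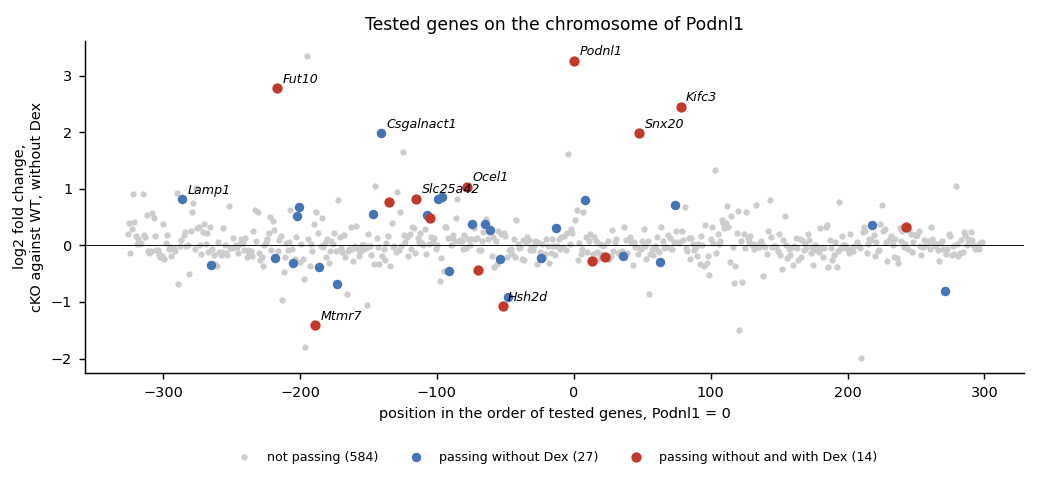
Log2 fold change of cKO against WT without Dex (vertical axis) for 625 tested genes on the chromosome of Podnl1, by their position in the order of tested genes with Podnl1 at 0 (horizontal axis). Red points passed without and with Dex (14), blue points without Dex (27), and grey points did not pass.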

How the data were processed

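Bulk RNA-seq libraries of mouse CD8+ T cells (38-nucleotide read pairs) were read as estimated counts per gene, deposited by the authors as 1 table. The submitters' processing notes name TopHat, RSEM, DESeq and mm9, with no versions. FPKM values deposited by the authors served for alternatives. Estimated counts were rounded, and library totals ranged from 14221883 to 16387150 in the 6 libraries compared.

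The 12 day 3 libraries entered 1 edgeR (4.0.16, R 4.3.3) quasi-likelihood fit with TMM scaling, a mean per group and filterByExpr (minimum count 10, minimum total 15). Calls had a Benjamini-Hochberg adjusted p under 0.05 over all 11967 tested genes. A standard error is the log2 change divided by the square root of F. The interaction compared the genotype difference with and without Dex. The fit was tested on simulated data. Alternatives used DESeq2 1.42.0, limma 3.58.1 on log2(FPKM + 1), other filters, leaving out libraries, and a correction for transcript GC content (GENCODE vM21, longest coding transcript, 93.7% of tested genes), chosen after seeing the data.

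Genes named were the expected controls, up to 4 passing members per list (2 of lowest p where none passed), the 15 largest rises and falls at 10 CPM or more without overlap, the 15 of lowest p passing in both genotype comparisons, 10 with a passing interaction, and neighbours of Nr3c1. Members and lists were chosen with earlier results of these data known. Some items are not reported here.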

Additional observations from a re-analysis of the deposited data

Results flagged for a closer look

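The genotype difference with Dex differed from that without it, by the interaction term of the edgeR fit at an adjusted p under 0.05, for 37 of the genes followed here. Values are the log2 change of cKO against WT with Dex minus the same change without Dex. WT levels that responded to Dex enter every one of these values.

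Among genes that passed without Dex, the value was positive for Trib3 (0.73), Slc7a3 (0.83), Aldh1l2 (0.96), Tcea1 (0.43), Dgat2 (1.15), Lcp2 (0.47), Ccl3 (1.29), Nars (0.28), Atf4 (0.36), Hspa9 (0.33), Ccnd3 (0.31), Iars (0.32) and Lgalsl (0.75). It was negative for Vim (-1.11), Gimap3 (-0.56), Csgalnact1 (-3.39), Ddit4 (-0.91), Socs1 (-0.97), Nfil3 (-0.92), Cactin (-1.09), Brca2 (-0.76), Itgb7 (-0.75), Runx3 (-0.41) and Gm5506 (-0.61). The Lgalsl call without Dex ended without any 1 of the 6 libraries (adjusted p 0.0505 to 0.149) and after GC correction (0.107). That of Brca2 ended without WT 1, WT 2, cKO 5 or cKO 6 (0.053 to 0.103).

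Among genes that did not pass without Dex, the value was positive for Ifng (4.84), Lta (0.99), Eomes (1.71), Trat1 (1.80), Xcl1 (1.81), Cd200 (0.61), Gzmb (0.35) and Tnf (0.95). It was negative for Tsc22d3 (-1.49), Pdcd1 (-1.30), Il7r (-0.84), Igfbp4 (-1.02) and Fkbp5 (-0.84). Ifng, the gene of interferon gamma, had the largest positive value among the 37, with WT at 6.91, 11.6 and 1.59 CPM with Dex and at 243, 208 and 293 CPM without it. No group compared here had 4 or more libraries, so single outlying libraries were not sought by rule.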

How the results depend on the processing

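None of the 104 passing genes followed changed direction under the alternatives. The count of 283 genes that passed without Dex became 793 with no low-count filter, 541 in DESeq2, 101 in limma on FPKM with no filter, 129 with all 24 libraries in 1 fit, 147 with GC correction, 45 at an adjusted p under 0.01 and 96 with a 1.5-fold minimum. It ranged from 63 (without WT replicate 2) to 364 (without WT replicate 3). The 59 genes shared with the Dex comparison became 135 with no filter, 89 in DESeq2, 33 in limma on FPKM with no filter, 33 with all 24 libraries and 39 with GC correction, and 23 to 104 without single libraries. The 353 interaction genes became 765, 553, 185 and 213 under the first 4 of these, and 224 to 479 without single libraries. The 826 genes that passed with Dex ranged from 484 to 1186 without single libraries. The median of genes that rose with Dex at day 9 was 0.0446 in limma on FPKM with no filter (0.0908 to 0.157 without single libraries), and that of genes that fell was -0.18 in lists of 50 genes (-0.14 to -0.09 without single libraries). The cause of these shifts was not tested.

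Scaling moved the split between directions. With library totals alone 397 genes passed, 35.3% of them higher against 58.3% with TMM, and the median log2 change of all genes was -0.04. The share higher was 42.6% in limma on FPKM with no filter, 72% without WT replicate 3 and 49.7% without cKO replicate 5. Of 104 passing genes followed, 63 did not pass in 4 or more alternatives.

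No paired analysis was possible because the WT replicates are numbered 1 to 3 and the cKO replicates 4 to 6. For the interaction, a replicate block within genotype gave 526 genes. Same-numbered libraries with and without Dex correlated at 0.01, 0.03 and 0.04 in WT and 0.19, 0.06 and 0.30 in cKO. Differently numbered ones correlated at -0.08 to 0.051 in WT and at -0.256 to 0.141 in cKO. For each cKO library without Dex the same-numbered value was the highest, and for no WT library was it so. Whether equal numbers mark the same animals is not stated, and the main fit did not pair them.

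With 3 libraries a group an exact permutation test of a single value cannot go below 0.1. Genes under about 10 counts per library were mostly filtered out, so changes in them were not detectable here. Base composition moved with the WT libraries without Dex, while the WT libraries with Dex lay with the cKO libraries. Within the 6 libraries compared, its part in the calls cannot be told apart from genotype.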
